A study of Homo sapiens with 20 samples.

Results

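The protein-coding genes of the cytosolic ribosome were followed through BCOR depletion and glucocorticoid treatment in HEK293-GR cells. Members were chosen by name: symbols beginning RPL or RPS plus a number, with an optional A, X or L and a further number, together with RPSA, RPLP0, RPLP1 and RPLP2, each annotated as protein-coding and represented by the transcript with the most reads. This gave 84 genes, 52 of the large and 32 of the small subunit, out of 27896 gene symbols in the count table, of which 19391 are protein-coding. The naming rule itself used no fold change or test, although read totals picked the transcript. The set was chosen with earlier results of these data known.

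HEK293-GR is a human embryonic kidney line that constitutively expresses the glucocorticoid receptor (GR). BCOR is a corepressor that binds BCL6 and is a subunit of a variant Polycomb complex. Poly(A) RNA was sequenced from 4 groups of 4 biological replicates: cells transfected with a pool of siRNAs against BCOR (siBCOR) and treated with dexamethasone (dex, a GR agonist, 100 nM for 6 h), siBCOR cells given ethanol vehicle (EtOH), cells transfected with control siRNA (siNON) and treated with dex, and siNON cells given vehicle. All 4 groups received 20 nM siRNA for 72 h and were kept in steroid-depleted medium before treatment. BCOR ChIP-seq came from 2 replicates each of the same cells, untransfected as far as the labels say, after dex (100 nM) or vehicle for 1 h, and was deposited as lists of dex-enriched (D-enriched), vehicle-enriched (V-enriched) and shared peaks.

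Each ribosome has a small subunit, which binds the mRNA and reads its codons, and a large subunit, which joins the amino acids. The proteins of both are needed in about equal numbers, and their genes are among the most strongly transcribed in growing cells. Their mRNAs typically begin with a 5′ terminal oligopyrimidine (TOP) tract, a C followed by further pyrimidines, through which mTORC1 and the binding protein LARP1 control their translation and stability. MYC is a known activator of ribosome production, and glucocorticoids restrain growth in many cell types.

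The TOP tract is what most members share in sequence, so transcript starts of genes on which the results below turn are shown. RefSeq promoter windows (GRCh38.p14) matched 67 of the 84 members. A start was counted as TOP when the annotated first base was C and at least 4 more pyrimidines followed without a break. Each line gives 30 bases, of which 10 precede the annotated start, and capitals mark the TOP tract.
RPL37A (chr2:216498834-216498863, + strand): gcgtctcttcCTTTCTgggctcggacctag
RPL18 (chr19:48619159-48619188, - strand): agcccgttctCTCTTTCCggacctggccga
RPLP0 (chr12:120201092-120201121, - strand): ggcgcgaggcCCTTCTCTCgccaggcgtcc
RPLP1 (chr15:69452808-69452837, + strand): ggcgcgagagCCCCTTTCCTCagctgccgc
RPLP2 (chr11:809957-809986, + strand): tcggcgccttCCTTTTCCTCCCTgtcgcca
RPS12 (chr6:132814559-132814588, + strand): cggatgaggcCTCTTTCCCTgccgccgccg
RPS18 (chr6:33272065-33272094, + strand): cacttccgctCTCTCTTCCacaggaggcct
RPS19 (chr19:41860245-41860274, + strand): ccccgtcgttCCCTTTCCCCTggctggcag
RPS24 (chr10:78033853-78033882, + strand): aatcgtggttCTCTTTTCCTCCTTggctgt
RPL22 (chr1:6199576-6199605, - strand): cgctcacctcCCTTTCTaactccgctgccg
RPL22L1 (chr3:170870176-170870205, - strand): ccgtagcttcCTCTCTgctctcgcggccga
RPL39 (chrX:119791611-119791640, - strand): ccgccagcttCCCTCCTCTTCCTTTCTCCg
RPS28 (chr19:8321486-8321515, + strand): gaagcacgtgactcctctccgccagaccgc
RPS26 (chr12:56041908-56041937, + strand): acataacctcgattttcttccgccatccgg
RPL7L1 (chr6:42879606-42879635, + strand): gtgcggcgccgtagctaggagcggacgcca
The last 3 had no tract at the annotated start, although a pyrimidine run lies a few bases downstream in RPS28 and RPS26. A TOP start was annotated for 47 of the 67 matched members (70.1%), against 7.17% of 11373 protein-coding genes that were tested and had a window. Large-subunit members had one in 69% of cases and small-subunit members in 72%. The tracts were 5 to 19 bases long with a median of 8, and the longest was that of RPL39.

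Levels were compared as library-scaled counts (CPM) divided by transcript length in kilobases (CPM per kb), averaged over the 16 libraries. Among the 76 members that passed the low-count filter and are not second copies of another member, the 46 large-subunit genes had a median of 1124 CPM per kb and the 30 small-subunit genes a median of 1172 CPM per kb. The quartiles of the levels lay at 865 and 1388 CPM per kb for the large subunit and at 839.5 and 1279.7 CPM per kb for the small one. RPLP1 of the ribosomal stalk was highest in the large subunit at 2743 CPM per kb, followed by RPL4 at 2591, RPL41 at 2479, RPL39 at 1907 and RPL8 at 1844 CPM per kb. In the small subunit the order was RPS2 at 3084, RPS18 at 2864, RPS4X at 2683, RPS16 at 2365 and RPS19 at 2291 CPM per kb. RPS18 is annotated in 6 copies, so its counts are uncertain. Second copies apart, the lowest were RPL28 at 116 and RPL27A at 141 CPM per kb in the large subunit and RPS26 at 179, RPS23 at 301 and RPS3 at 559.6 CPM per kb in the small one; of these 5, all but RPS26 have chosen transcripts longer than 2 kb, which lowers a per-kb value.

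The tissue-restricted or second copies of ribosomal proteins were far below their parent genes. RPL3L, a relative of RPL3 found mainly in heart and skeletal muscle, stood at 0.278 CPM per kb against 1389 CPM per kb for RPL3. RPL22L1 stood at 6.14 CPM per kb against 286 for RPL22, and RPL39L, known from testis, at 26.3 against 1907 CPM per kb for RPL39. RPS27L, a p53 target, stood at 43.1 CPM per kb against 1271 for RPS27. RPL7L1, a nucleolar relative of RPL7, reached 50.1 CPM per kb against 1117 for RPL7, and RPL26L1 reached 81.8 against 1383 CPM per kb for RPL26. RPL10L, the testis copy of RPL10, had 12 reads in all 16 libraries together and did not pass the filter. In all 82 members were tested, 51 of the large and 31 of the small subunit.

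Before the effect on the members, the libraries themselves were compared. Counts over the chosen transcripts ran from 18580294 to 28054808 per library. BCOR mRNA was 13.8 to 15.5 CPM in siBCOR cells with dex, 21.8 to 23.5 CPM in siBCOR cells with vehicle, 70.6 to 106 CPM in siNON cells with dex and 159 to 227 CPM in siNON cells with vehicle, so the depletion held in every library, and BCOR was itself lower with dex in siNON cells (log2 fold change -1.06 ± 0.11, edgeR adjusted p = 1.45e-06). Of 9 genes listed as typical of HEK293 cells, 8 averaged 1 CPM or more over the 16 libraries, and none of 5 immune genes did. Summed, the HEK293 genes gave 1101 to 1169 CPM in siBCOR cells with dex, 1171 to 1347 CPM in siBCOR cells with vehicle, 1372 to 1475 CPM in siNON cells with dex and 1339 to 1604 CPM in siNON cells with vehicle. Of 4 markers of other epithelia 2 averaged 1 CPM or more, and summed they gave 219 to 254 CPM, 241 to 268 CPM, 253 to 293 CPM and 307 to 313 CPM in the same 4 groups, so that with vehicle the siBCOR and siNON libraries did not overlap, while with dex they overlapped slightly. Markers of fibroblasts (2 of 5 at 1 CPM or more, 28.9 to 50.9 CPM summed) and endothelium (1 of 3, at most 2.20 CPM summed) overlapped between groups. The part of these markers in the results was not tested. The libraries of siNON with dex replicate 4 and siNON with vehicle replicate 3 stood apart from their groups on the first axis of variation within groups, which carried 39.1% of that variation. On the same axis siBCOR with vehicle replicate 2 stood apart the other way. Counts are also given without the 2 siNON libraries. Those printed in the text are given without the siBCOR library where it changes them by over 1.5 times.

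BCOR-depleted cells had less of their mRNA in ribosomal protein genes. The 84 genes took 7.03 ± 0.466% of counts in siBCOR cells with dex, against 8.32 ± 0.336% in siNON cells with dex (SD, n = 4 each). With vehicle they took 7.18 ± 0.496% in siBCOR cells, against 8.26 ± 0.430% in siNON cells (SD, n = 4 each). The groups did not overlap within either treatment, although the gap in vehicle was narrow, with a highest siBCOR library at 7.78% and a lowest siNON library at 7.83%. Counts are shares of a library, so less ribosomal protein mRNA per cell and more of other mRNAs per cell cannot be told apart, nor can a change in every cell and a change in the mix of cells.

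The small subunit lost slightly more than the large one. Large-subunit genes took 4.43 ± 0.301% of counts in siBCOR cells with dex, 4.53 ± 0.297% in siBCOR cells with vehicle, 5.18 ± 0.217% in siNON cells with dex and 5.14 ± 0.273% in siNON cells with vehicle. Small-subunit genes took 2.60 ± 0.165%, 2.65 ± 0.199%, 3.15 ± 0.119% and 3.11 ± 0.158% in the same 4 groups (SD, n = 4 each). With vehicle the large-subunit shares overlapped, with 4.88% in the highest siBCOR and 4.85% in the lowest siNON library, and the small-subunit shares did not. The ratio of the large to the small share was 1.69 to 1.73 in siBCOR cells with dex and 1.68 to 1.72 in siBCOR cells with vehicle. It was 1.63 to 1.65 in siNON cells with dex and 1.63 to 1.67 in siNON cells with vehicle, so that siBCOR and siNON libraries did not overlap within a treatment.

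**Figure D1:**
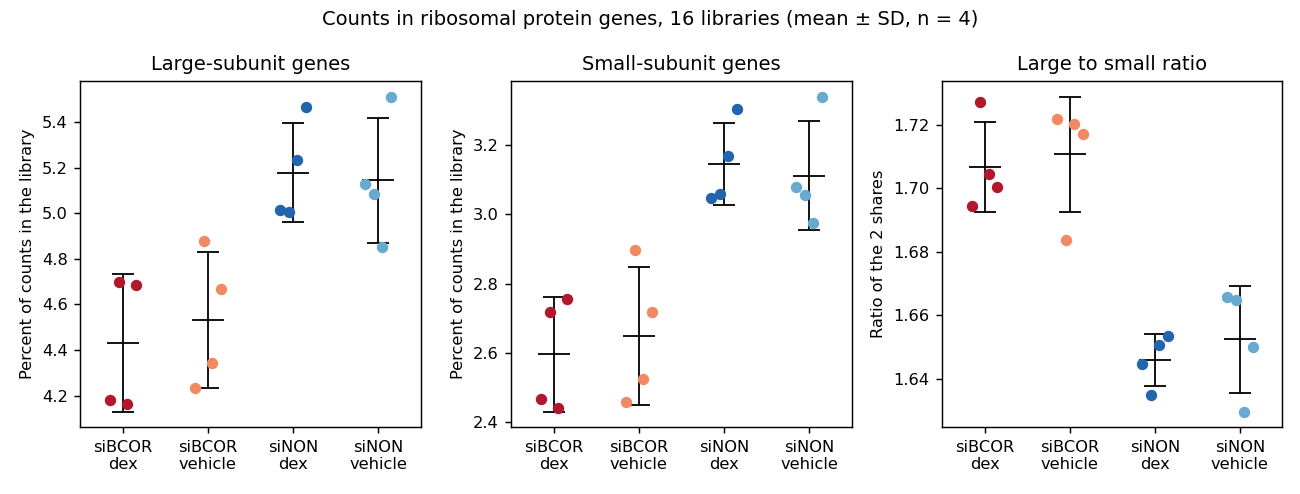
Percent of library counts in large-subunit genes and in small-subunit genes, and the ratio of the 2 shares, in each of the 16 libraries (points), with mean and SD of 4 libraries (black). The axes do not start at 0. Both shares have lower means in siBCOR than in siNON groups, with 1 siBCOR library above 1 siNON library in the large-subunit share with vehicle, and the ratio lies higher in every siBCOR library.

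Gene by gene, most ribosomal protein mRNAs were lower after BCOR depletion, by modest amounts. In dex-treated cells 55 of 82 members (67.1%) were lower and 1 was higher in siBCOR than in siNON cells at an edgeR adjusted p under 0.05, where 18.8% of the 16432 genes tested were lower and 20.7% higher. In vehicle 37 of 82 (45.1%) were lower and 1 higher, where 8.23% of genes were lower and 8.87% higher. The median log2 fold change of the members was -0.25 with dex and -0.21 with vehicle, against 0.02 over all genes tested in each. Without the 2 siNON libraries that stood apart, 57 members were lower and 2 higher with dex, and 58 lower and 1 higher with vehicle; over all genes 53.8% and 24.3% were then called in either direction, against 39.5% and 17.1% with all libraries. The vehicle count rested more on single libraries: it was 22 lower without siBCOR with vehicle replicate 1 and 23 lower without siNON with vehicle replicate 4.

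By subunit, 33 of 51 large-subunit and 22 of 31 small-subunit members were lower with dex, with medians of -0.22 and -0.34 on the log2 scale. With vehicle 17 of 51 large-subunit and 20 of 31 small-subunit members were lower, with medians of -0.18 and -0.25. The vehicle counts were 31 of 51 and 27 of 31 without the 2 siNON libraries that stood apart. No second copy was called lower, and most of these copies belong to the large subunit. With the second copies left out, the counts with all libraries were 33 of 46 large-subunit and 22 of 30 small-subunit members with dex. With vehicle they were 17 of 46 and 20 of 30. All 4 siBCOR libraries lay below all 4 siNON libraries for 52 members with dex, where this held for 17.6% of all genes, and for 42 members with vehicle, where it held for 7.92%. The effects in dex and in vehicle share no library. Across the 82 members they had a Pearson correlation of 0.69, with 73 members below 0 in both, and 32 members were called lower in both, which is 86.5% of the vehicle list and 58.2% of the dex list.

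RPL37A, a zinc-binding protein of the large subunit (hg19 chromosome 2, 217363520 to 217366188), had the largest fall in dex among the 82 members. It had 327, 410.0, 359 and 412 CPM in siBCOR cells with dex, against 594, 626, 638 and 662 CPM in siNON cells with dex, a log2 fold change of -0.74 ± 0.08 (SE, edgeR adjusted p = 1.09e-05). With vehicle it had 392, 478, 377 and 422 CPM in siBCOR cells, against 627, 611, 557 and 655 CPM in siNON cells (-0.55 ± 0.08, edgeR adjusted p = 0.000335). The groups did not overlap in either treatment, and the mRNA stood at roughly the same level in both siNON groups.

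The large-subunit protein RPL18 behaved alike, with 527, 606, 577 and 629.8 CPM in siBCOR cells with dex, against 877, 911, 947 and 950.0 CPM in siNON cells with dex (-0.66 ± 0.09, edgeR adjusted p = 4.36e-05). With vehicle RPL18 had 538, 737, 583 and 658 CPM in siBCOR cells, against 937, 849.7, 837 and 963 CPM in siNON cells (-0.51 ± 0.09, edgeR adjusted p = 0.000752). RPL10, which joins the large subunit late in its maturation, fell by 0.50 on the log2 scale with dex (edgeR adjusted p = 0.000165) and by 0.25 with vehicle (edgeR adjusted p = 0.0287). RPL3, which lies at the peptidyl transferase centre, fell by 0.37 with dex (edgeR adjusted p = 0.000573) and by 0.19 with vehicle, where its edgeR adjusted p of 0.0499 was at the threshold. RPL8 fell by 0.45 and 0.43 with dex and with vehicle, and RPL27A by 0.32 and 0.34.

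The stalk of the large subunit, where the GTPase translation factors dock, is made of RPLP0, RPLP1 and RPLP2, and all 3 mRNAs fell in both treatments. RPLP0 had 1579, 1765, 1619 and 1871 CPM in siBCOR cells with dex, against 2325, 2389.6, 2512 and 2569.6 CPM in siNON cells with dex (-0.52 ± 0.07, edgeR adjusted p = 5.52e-05). With vehicle it had 1867, 2059, 1697 and 1860.2 CPM in siBCOR cells, against 2348, 2375, 2217 and 2533 CPM in siNON cells (-0.34 ± 0.07, edgeR adjusted p = 0.00318). RPLP1 fell by 0.44 with dex and 0.37 with vehicle, and RPLP2 by 0.56 and 0.40, with edgeR adjusted p-values of 0.00331 and 0.0178 for RPLP1 and 0.000869 and 0.0148 for RPLP2.

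In the small subunit, RPS12 had the smallest p-value. It had 479, 516, 460.0 and 523 CPM in siBCOR cells with dex, against 653, 650.1, 635 and 726 CPM in siNON cells with dex (-0.43 ± 0.06, edgeR adjusted p = 6.23e-05). With vehicle it had 481, 513, 474 and 488 CPM in siBCOR cells, against 670.4, 651, 660.1 and 721 CPM in siNON cells (-0.47 ± 0.06, edgeR adjusted p = 6.27e-05), and each siBCOR library lay below each siNON library. RPS19, the gene most often mutated in Diamond-Blackfan anaemia, ranged over 1022 to 1327 CPM in siBCOR cells with dex, against 1592 to 1830.3 CPM in siNON cells with dex (-0.55 ± 0.08, edgeR adjusted p = 0.000171). RPS18, of the head of the small subunit, ranged over 972 to 1225 CPM in siBCOR cells with dex, against 1562 to 1627 CPM in siNON cells with dex, with log2 fold changes of -0.51 with dex and -0.52 with vehicle.

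Further small-subunit genes that fell in both treatments were RPS28 (-0.56 with dex, -0.53 with vehicle on the log2 scale), RPS16 (-0.46, -0.27), RPS21 (-0.44, -0.37) and RPSA (-0.45, -0.25), the last also known as a laminin receptor. The most abundant small-subunit mRNA per kb, RPS2, averaged 2439 ± 212 CPM in siBCOR cells with dex, against 3349 ± 244 CPM in siNON cells with dex (SD, n = 4 each; log2 fold change -0.46 ± 0.09, edgeR adjusted p = 0.0011). Again the groups did not overlap.

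**Figure D2:**
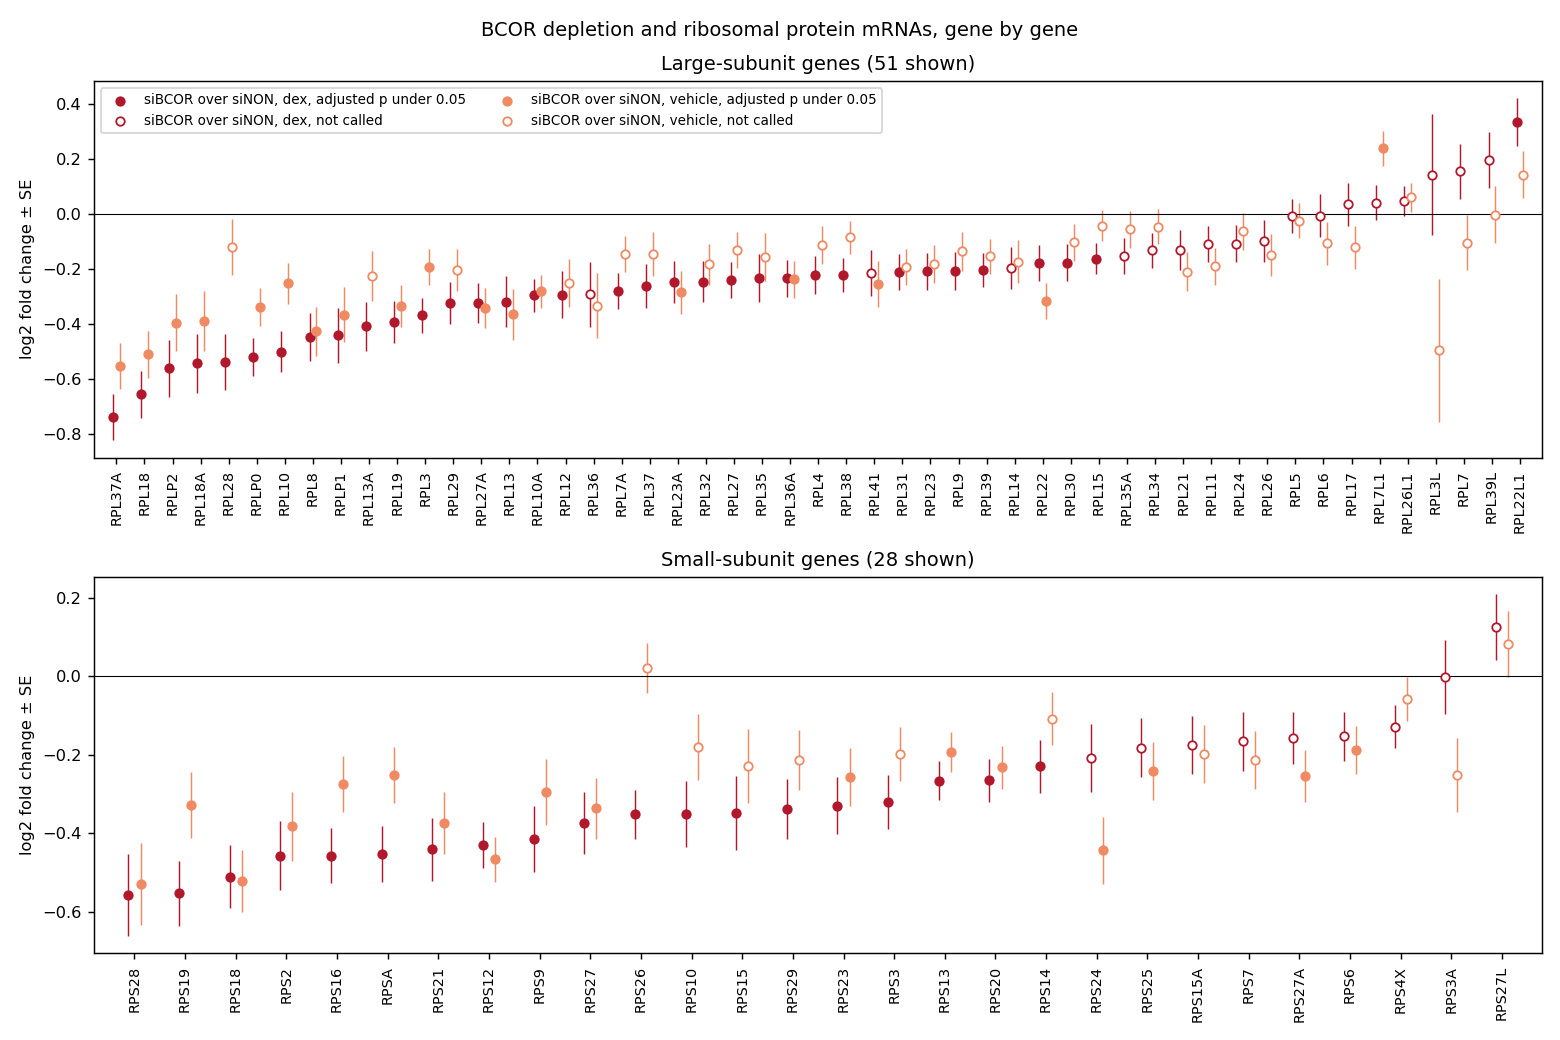
Log2 fold change (± SE) of tested members between siBCOR and siNON cells, with dex (dark) and with vehicle (light), ordered by the change with dex; filled points have an adjusted p under 0.05. Most points lie below 0, from -0.74 for RPL37A with dex, and the second copies RPL22L1, RPL39L, RPL3L, RPL26L1, RPL7L1 and RPS27L stand toward the right, with RPL7, RPL17 and RPS3A.

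A fall was not seen in every ribosomal protein gene: 22 of the 82 were called lower in neither treatment, 17 of the large and 5 of the small subunit. This number was 14 without the 2 siNON libraries that stood apart, 12 of the large and 2 of the small subunit. The 6 second copies that were tested, mostly of the large subunit, were among them in both cases. RPL5 and RPL11, which with 5S rRNA form a particle that also binds MDM2, were both among the 22, RPL11 no longer when those libraries were left out (-0.27 with vehicle, edgeR adjusted p = 0.0066). RPL5 had 1214, 1319.9, 1205 and 1389 CPM in siBCOR cells with dex, against 1260.4, 1229, 1232 and 1432 CPM in siNON cells with dex, and 1289, 1201, 1326 and 1287 CPM in siBCOR cells with vehicle, against 1224, 1339, 1287 and 1335 CPM in siNON cells with vehicle. These ranges overlapped, with log2 fold changes of -0.01 ± 0.06 and -0.02 ± 0.06 with dex and with vehicle. RPL11 had log2 fold changes of -0.11 ± 0.07 and -0.19 ± 0.07 (edgeR adjusted p = 0.194 and 0.0562). RPL6, RPL7, RPL17 and RPS3A, chosen here after their values were seen, had log2 fold changes with dex of -0.01, 0.16, 0.04 and 0.00. RPL17 shares most of its reads with the annotated readthrough transcript RPL17-C18orf32 (92.8% as many reads), so that the level cannot be assigned to 1 of them.

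RPS24, mutated in some cases of Diamond-Blackfan anaemia, was 1 of 5 members called lower with vehicle and not with dex, beside RPL41, RPS25, RPS27A and RPS6. It had 641, 641, 639 and 679.7 CPM in siBCOR cells with vehicle, against 849, 862, 838 and 985 CPM in siNON cells with vehicle (-0.44 ± 0.09, edgeR adjusted p = 0.00224). With dex it had 745, 887, 647 and 739 CPM in siBCOR cells, against 856, 836, 805 and 990.0 CPM in siNON cells (-0.21 ± 0.09, edgeR adjusted p = 0.0622), and these ranges overlapped. The difference between the 2 effects did not pass the test (edgeR adjusted p of the interaction = 0.275).

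No second copy was called lower. This held for the 6 that passed the filter and for both treatments, against 55 of the other 76 members called lower with dex and 37 of 76 with vehicle. After depletion in dex-treated cells RPL22L1 rose while RPL22, an RNA-binding large-subunit protein, fell. In mouse, loss of Rpl22 is known to raise Rpl22l1, and such a link was not tested here. The transcript counted for RPL22L1 is annotated in RefSeq as non-coding. Its call with dex held in all 25 alternatives, among them counts summed over all transcripts. RPL22L1 had 13.2, 13.3, 13.4 and 14.1 CPM in siBCOR cells with dex, against 11.7, 9.33, 10.8 and 10.9 CPM in siNON cells with dex (0.34 ± 0.09, edgeR adjusted p = 0.00727), without overlap. With vehicle the ranges were 13.02 to 14.04 CPM in siBCOR cells, against 10.7 to 13.9 CPM in siNON cells, and overlapped (edgeR adjusted p = 0.274). RPL22 had 571, 608, 485 and 562 CPM in siBCOR cells with dex, against 627, 606, 599 and 690.0 CPM in siNON cells with dex (-0.18 ± 0.07, edgeR adjusted p = 0.0394). Its fall was -0.32 ± 0.07 with vehicle (edgeR adjusted p = 0.00361).

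RPL7L1, also counted on a transcript annotated as non-coding, was the member that was higher with vehicle. It had 241, 194, 206 and 195 CPM in siBCOR cells with vehicle, against 175, 183, 179 and 171 CPM in siNON cells with vehicle (0.24 ± 0.06, edgeR adjusted p = 0.017). Its highest library was siBCOR with vehicle replicate 1, and the call held in 20 of 25 alternatives. It was lost without that library (edgeR adjusted p = 0.0569), without siNON with vehicle replicate 3 (0.0599) and without siNON with vehicle replicate 4 (0.0525). With dex the siBCOR range was 193 to 216 CPM, against 194 to 202 CPM in siNON cells. Of the other copies, RPL26L1 had log2 fold changes with dex and with vehicle of 0.05 and 0.06, RPS27L of 0.13 and 0.08. Those of RPL39L were 0.20 and -0.0, and none of these passed the test. RPL3L had the lowest value of the 6 copies with vehicle, -0.50, and was not called, with only 5 to 17 reads in each library. RPL36A, which has no second copy among the members, fell by 0.23 with dex and 0.24 with vehicle, but shares its reads with RPL36A-HNRNPH2.

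**Figure D3:**
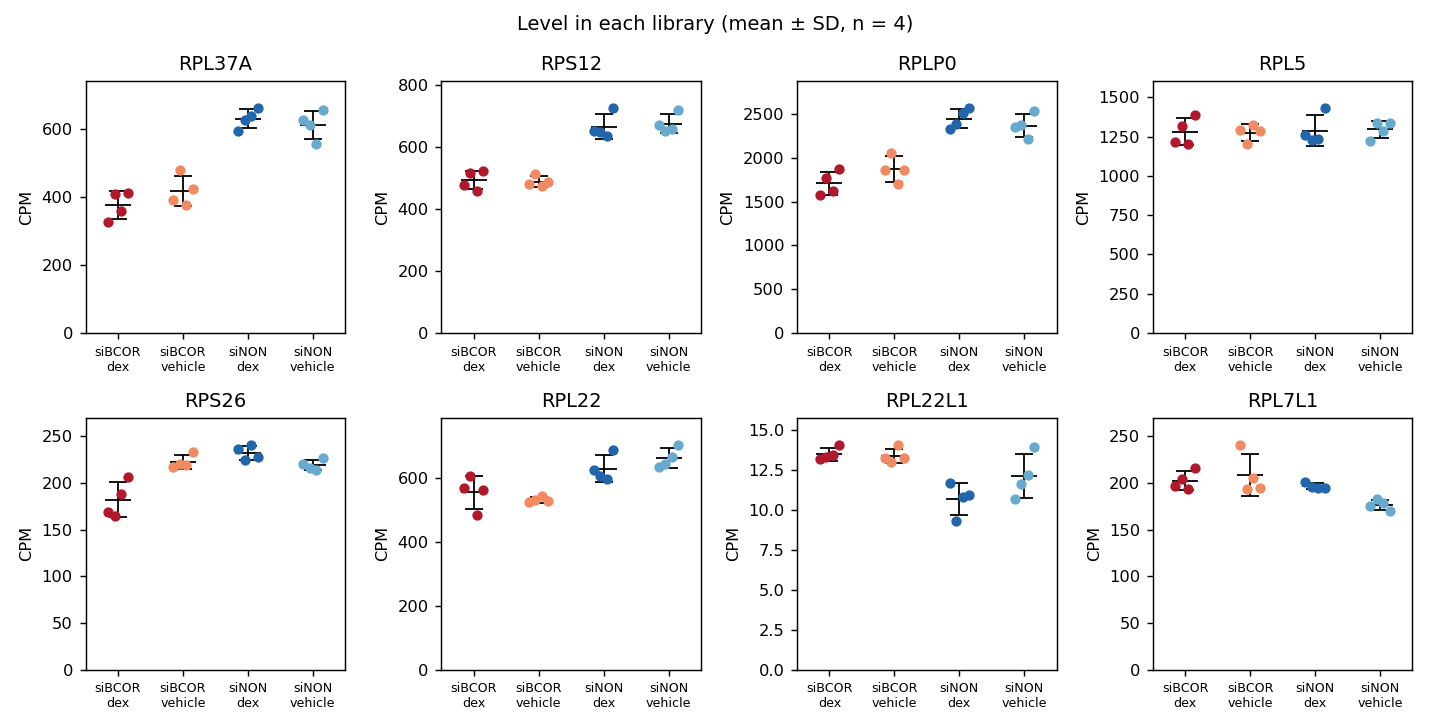
Level (CPM, linear axis from 0) of 8 members in each of the 16 libraries, with mean and SD of 4 libraries. RPL37A, RPS12 and RPLP0 are lower in all siBCOR libraries than in any siNON library, RPL5 overlaps throughout, RPS26 is lowest in siBCOR with dex, and RPL22L1 is higher in siBCOR with dex than in siNON with dex.

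Dex by itself moved few ribosomal protein mRNAs. In siNON cells 0 of 82 members passed the test between dex and vehicle, where 19.4% of all genes did; edgeR gave 1 member an unadjusted p under 0.05, DESeq2 also called 0, and the smallest adjusted p was 0.115 for RPL7L1, which fell to 0.0358 when siBCOR with vehicle replicate 1, a library outside this pair of groups, was left out. Next were RPL22L1 (-0.18 ± 0.09, edgeR adjusted p = 0.173) and RPL26L1 (0.10 ± 0.05, edgeR adjusted p = 0.218). In siBCOR cells 3 were lower and 1 higher, where 12.5% of all genes were lower and 10.5% higher. The member medians were -0.03 in siBCOR cells and 0.03 in siNON cells on the log2 scale; without the 2 siNON libraries that stood apart both were below 0 (-0.02 and -0.03), and without siBCOR with vehicle replicate 2 the siBCOR median was 0.01. The siBCOR calls were then 1 lower and 1 higher. Over the same hours MYC, the transcription factor, was at 29.2 to 33.5 CPM in siBCOR cells with dex, against 173 to 219.7 CPM in siBCOR cells with vehicle, and at 28.9 to 35.8 CPM in siNON cells with dex, against 178 to 227 CPM in siNON cells with vehicle. Its log2 fold changes were -2.61 ± 0.10 in siBCOR cells and -2.69 ± 0.10 in siNON cells (edgeR adjusted p = 2.17e-12 and 1.14e-12). BCOR depletion gave MYC log2 fold changes of -0.06 ± 0.10 with dex and -0.14 ± 0.09 with vehicle, neither past the test (edgeR adjusted p = 0.656 and 0.321).

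RPS26, which touches the mRNA at the exit of its channel, was the member called lower with dex in siBCOR cells under each of the 25 alternatives tried. It had 169, 165, 188 and 206 CPM in siBCOR cells with dex, against 217, 220.2, 219 and 233 CPM in siBCOR cells with vehicle (-0.29 ± 0.06, edgeR adjusted p = 0.00262), without overlap. RPS26 was also lower in siBCOR than in siNON cells with dex (-0.35 ± 0.06, edgeR adjusted p = 0.000649) and not with vehicle (0.02 ± 0.06, edgeR adjusted p = 0.863), but both falls rest on the same 4 siBCOR libraries with dex. In siNON cells it had 236, 224, 241 and 227 CPM with dex, against 219.6, 216, 213 and 226 CPM with vehicle (0.08 ± 0.06, edgeR adjusted p = 0.403). The difference between these effects was -0.37 ± 0.09 on the log2 scale and did not pass the test over all genes (edgeR adjusted p = 0.169). Without siNON with dex replicate 4 it did (edgeR adjusted p = 0.0286), as without both siNON libraries that stood apart (-0.36, edgeR adjusted p = 0.0319) and under DESeq2 (adjusted p = 0.0487).

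RPL28 followed the same pattern, with 346, 379, 453 and 413 CPM in siBCOR cells with dex, against 429, 561, 480.1 and 553 CPM in siBCOR cells with vehicle (-0.35 ± 0.10, edgeR adjusted p = 0.0201), though these ranges overlapped. The call was lost without siBCOR with dex replicate 1 or 2 and without siBCOR with vehicle replicate 2 or 4 (edgeR adjusted p = 0.0562 to 0.0757). Its interaction was -0.42 ± 0.14 (edgeR adjusted p = 0.214, and 0.0476 without siNON with dex replicate 4). RPL10 (-0.21 ± 0.08, edgeR adjusted p = 0.048) and the nearly silent RPL3L (0.86 ± 0.24, edgeR adjusted p = 0.0481, at 0.379 to 0.60 CPM with dex and 0.237 to 0.386 CPM with vehicle in siBCOR cells) were called by a small margin. Each held in 11 alternatives, of 25 for RPL10 and of 24 for RPL3L. Of the 82 members 0 passed the interaction test, where 0.0974% of all genes did; 4 had an unadjusted p under 0.05 in edgeR and DESeq2 called 1, RPS26. Without siNON with dex replicate 4, edgeR called 4, of which RPS26 and RPL28 lay below 0 and RPL7 and RPS3A above. Without both siNON libraries that stood apart, 10.8% of all genes passed the interaction test and 2 of the 82 members, RPS26 and RPS3A.

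Other genes of ribosome supply were read from lists chosen with earlier results of these data known. The snoRNA host genes, many of which also give TOP mRNAs, were called lower in 14 of 14 cases with dex and 12 of 14 with vehicle (medians -0.35 and -0.39). Over all genes 18.8% were lower with dex and 8.23% with vehicle. SNHG29 had 208, 239, 203 and 241 CPM in siBCOR cells with dex, against 329, 331, 360.3 and 361 CPM in siNON cells with dex (-0.63 ± 0.07, edgeR adjusted p = 6.4e-06). SNHG12 had 9.31, 8.29, 7.96 and 8.54 CPM in siBCOR cells with vehicle, against 14.7, 13.3, 12.8 and 14.6 CPM in siNON cells with vehicle (-0.70 ± 0.08, edgeR adjusted p = 4.27e-05). In neither case did the groups overlap.

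Of 22 translation factors and other genes known for TOP mRNAs, 11 were lower and 1 higher with dex, and 7 lower and 0 higher with vehicle. Over all genes 18.8% were lower and 20.7% higher with dex, and 8.23% lower and 8.87% higher with vehicle. With the 2 siNON libraries left out that stood apart, 11 were lower and 5 higher with dex. Of all genes 53.8% were then called in either direction. The elongation factor subunit EEF1B2 fell by 0.47 with dex and 0.45 with vehicle, EEF2, which moves the ribosome along the mRNA, by 0.50 with dex, EIF3L by 0.42 with dex, and TPT1 by 0.38 with vehicle, all past the test. Outside the naming rule, the scaffold RACK1 and FAU, the precursor of RPS30, fell with dex (by 0.31 and 0.33), FAU not without siBCOR with dex replicate 1 (edgeR adjusted p = 0.0515).

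The 78 mitochondrial ribosomal protein genes, whose products form the separate ribosome of mitochondria, showed no such lean with dex, where 11 were lower and 13 higher. With vehicle 10 were lower and 5 higher, and the medians were 0.03 with dex and 0.01 with vehicle. Over all genes 18.8% were lower and 20.7% higher with dex, and 8.23% lower and 8.87% higher with vehicle. Without the 2 siNON libraries that stood apart 16 were lower and 15 higher with dex, and 16 lower and 3 higher with vehicle. The vehicle median was then -0.06. Of all genes 53.8% with dex and 24.3% with vehicle were then called in either direction. Among them MRPL15 fell by 0.32 with dex and 0.41 with vehicle, MRPS24 by 0.30 and 0.34, and MRPS27 rose by 0.33 with vehicle.

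Of 49 factors that build ribosomes, 9 were lower and 16 higher with dex, and 4 lower and 4 higher with vehicle. The lower share with dex and both shares with vehicle were near those over all genes (18.8% lower with dex, 8.23% lower and 8.87% higher with vehicle). Of all genes 20.7% were higher with dex. Without the 2 siNON libraries that stood apart, 11 were lower and 5 higher with vehicle, where 24.3% of all genes were called in either direction. RRP12, needed for export of both subunits, had 63.4, 64.0, 66.7 and 63.7 CPM in siBCOR cells with dex, against 107, 109, 114 and 97.3 CPM in siNON cells with dex (-0.73 ± 0.08, edgeR adjusted p = 6.12e-06), and the helicase DDX10 rose by 0.63. Of 15 genes of RNA polymerase I, 3 were lower and 3 higher with dex, and 0 lower and 1 higher with vehicle. Without those libraries 6 were lower and 7 higher with dex, where 53.8% of all genes were called, and 3 lower and 1 higher with vehicle. Without siBCOR with vehicle replicate 2, 4 were lower and 5 higher with dex, and 0 lower and 2 higher with vehicle. UBTF, which opens rDNA for transcription, fell by 0.29 with dex. Of 14 import and assembly chaperones, 4 were lower and 4 higher with dex, and 4 lower and 0 higher with vehicle, beside the same shares over all genes. PDCD2, a chaperone of RPS2, fell by 0.37 in both.

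Dex lowered part of the biogenesis machinery in both siRNA backgrounds while the ribosomal protein mRNAs were hardly called. Of 49 biogenesis factors 15 were lower and 1 higher with dex in siBCOR cells, and 16 lower and 0 higher in siNON cells, where 12.5% and 8.64% of all genes were lower. Without the 2 siNON libraries that stood apart, 16 were lower and 7 higher in siBCOR cells, and 22 lower and 0 higher in siNON cells. Of all genes 34.2% in siBCOR cells and 20.7% in siNON cells were then called in either direction. UTP4 fell by 0.40 in siBCOR and 0.30 in siNON cells. Of 15 RNA polymerase I genes 7 were lower with dex in siBCOR cells and 4 in siNON cells, with 0 higher in both (3 higher in siBCOR cells without the 2 siNON libraries), among them POLR1B, which fell by 0.31 and 0.40, and UBTF, which fell by 0.41 and 0.24.

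Among 25 genes of mTORC1 and TOP mRNA control, 3 were higher and 2 lower with dex in siBCOR cells, and 5 higher and 1 lower in siNON cells. Over all genes 10.5% were higher and 12.5% lower with dex in siBCOR cells, near the shares of this list. In siNON cells 19.4% of all genes were called in either direction and 8.64% were lower. DEPTOR, an inhibitor of mTOR, rose by 0.91 with dex in siBCOR and 0.96 in siNON cells, SESN1, which holds mTORC1 off its activators, by 0.81 and 0.73, and CASTOR1, an arginine sensor that restrains mTORC1, by 0.85 and 0.86. LARP1 fell by 0.42 with dex in siBCOR cells. After BCOR depletion 8 were lower and 7 higher with dex, where 18.8% of all genes were lower and 20.7% higher. With vehicle 4 were lower and 3 higher, where 8.23% of all genes were lower and 8.87% higher. RRAGD, a GTPase that brings mTORC1 to the lysosome, rose by 0.56 with dex and 0.53 with vehicle, TSC1, an mTORC1 inhibitor, rose by 0.44 with vehicle, and EIF4EBP1, a translation repressor under mTORC1, fell by 0.71 with dex. In the MYC network of 11 genes, 3 were lower and 1 higher with dex and 1 lower and 0 higher with vehicle after depletion, of which MXD3 fell by 0.47 and 0.33. The mTORC1 list, when the 2 siNON libraries that stood apart were left out, had 12 lower and 7 higher with dex and 8 lower and 4 higher with vehicle after depletion, and 3 lower and 7 higher between dex and vehicle in siBCOR cells. In the same order, 53.8%, 24.3% and 34.2% of all genes were then called in either direction.

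**Figure D4:**
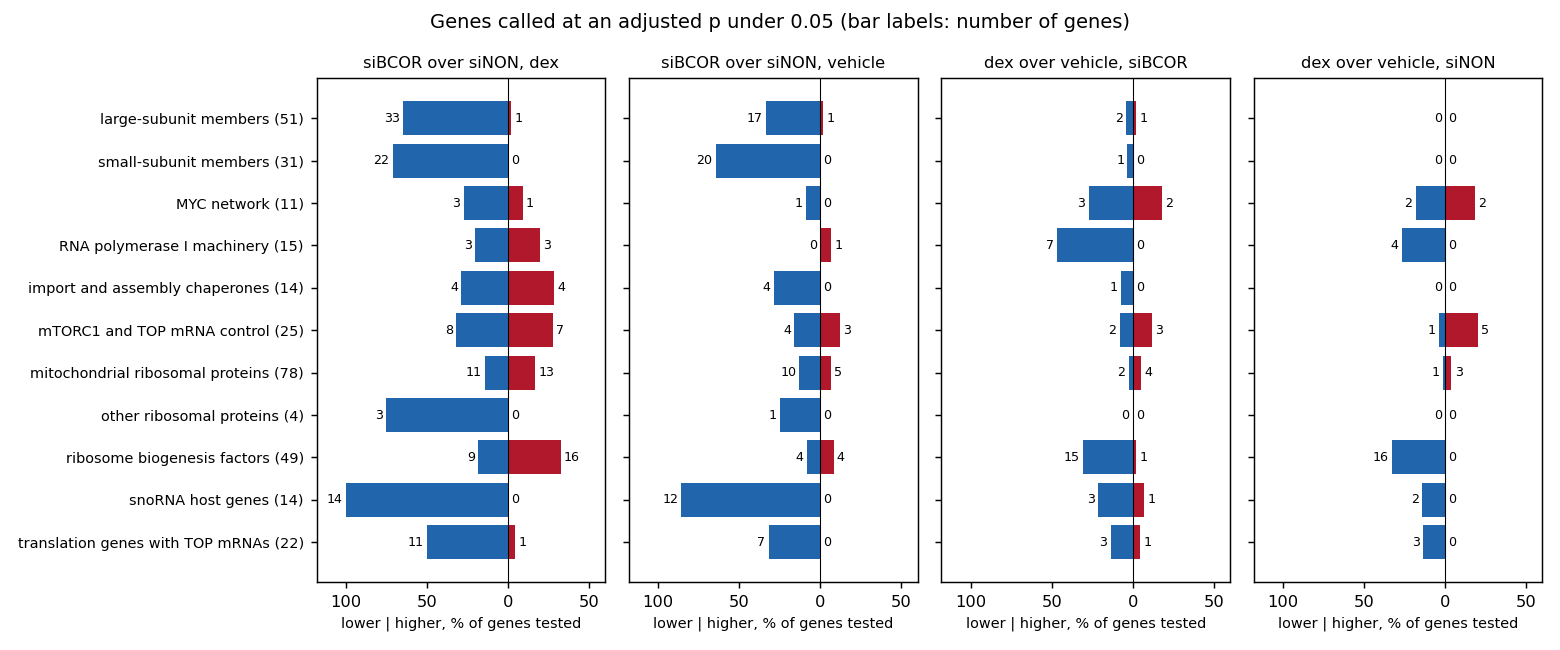
Percent of the tested genes of each list (number tested in brackets) called lower (left, blue) or higher (right, red) at an adjusted p under 0.05 in each of 4 comparisons, with the number of genes at each bar. Members, snoRNA host genes and TOP translation genes lean to lower after BCOR depletion, mitochondrial ribosomal proteins to neither side with dex, and with dex the biogenesis and RNA polymerase I genes lean to lower.

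Ribosomal protein mRNAs are abundant and short, and other abundant, short mRNAs were lower as well. Of the 82 members 73 averaged 300.0 CPM or more and 72 were up to 2 kb long. Of 94 other protein-coding genes with at least 300.0 CPM and up to 2 kb, 62.8% were lower and 3.19% higher in siBCOR than in siNON cells with dex (median -0.22), and 25.5% lower and 4.26% higher with vehicle (median -0.12). Of 299 longer ones, 42.5% were lower and 11.7% higher with dex (median -0.12), and 13.0% lower and 8.36% higher with vehicle (median -0.03). The share of members that were lower with dex, 67.1%, was thus near that of other abundant short genes, and with vehicle the members' 45.1% was above their 25.5%. Genes of the other lists were not taken out of these 94 and 299 genes. Across the 82 members the log2 fold change with dex had a Pearson correlation of -0.49 with log2 mean CPM, and that with vehicle of -0.19; the points share libraries and depth. The part of abundance and length in the members' fall was not tested.

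**Figure D5:**
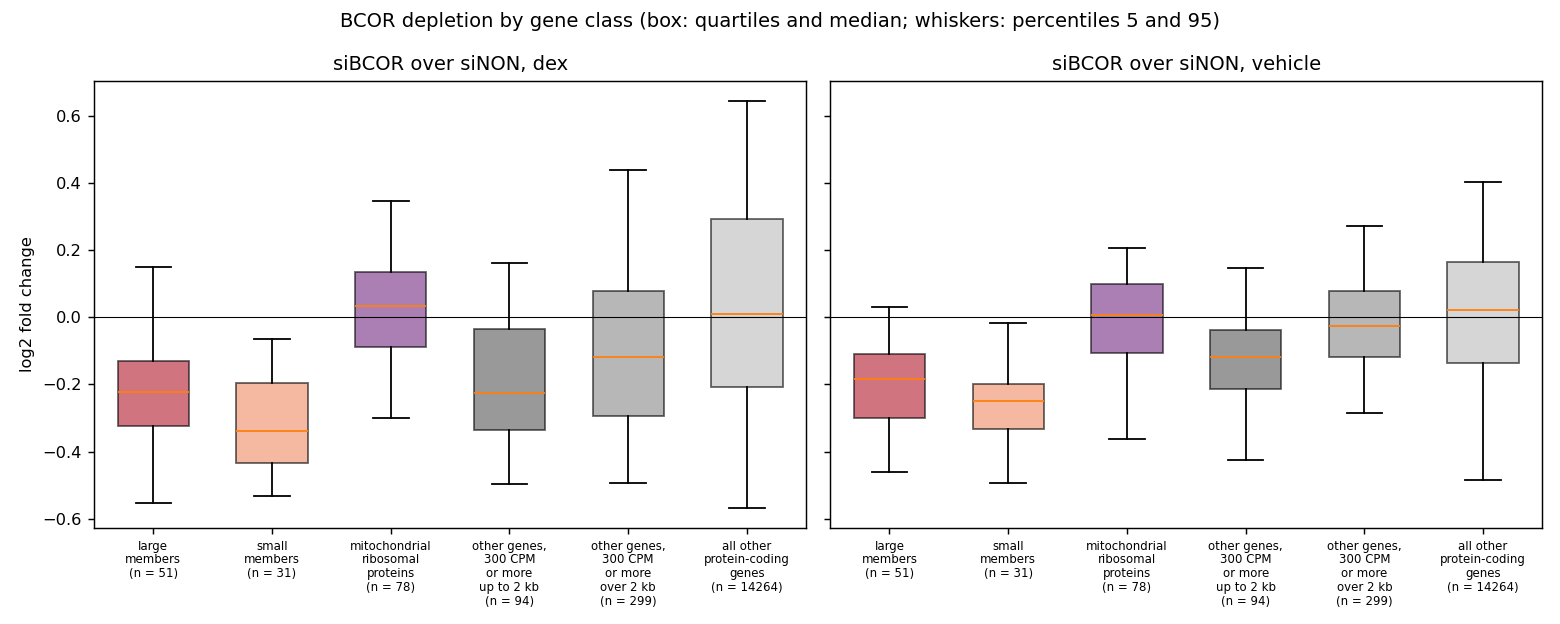
Distribution over genes of the log2 fold change between siBCOR and siNON cells, with dex (left) and with vehicle (right), for members by subunit, mitochondrial ribosomal proteins, other genes of at least 300 CPM split at 2 kb, and the other protein-coding genes; boxes are quartiles with the median, whiskers percentiles 5 and 95. The medians of both subunits lie below 0, as do those of abundant short genes, and that of mitochondrial ribosomal proteins lies near 0.

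BCOR peaks were found at ribosomal protein promoters about as often as at promoters in general. A peak was assigned when it overlapped by at least 1 base a window of 1 kb on either side of an hg19 start site. Shared peaks did so at 18 of 84 members (21.4%), against 20.7% of 14346 protein-coding genes tested and 23.3% of the 2305 with at least 100.0 CPM. The figures were 11 of 52 for the large subunit (21.2%) and 7 of 32 for the small (21.9%). D-enriched peaks lay at 0 of 84 members, against 1.46% of protein-coding genes, and V-enriched peaks at 0, against 0.976%. The lists held 3055 D-enriched, 267 V-enriched and 8587 shared peaks, each the authors' own, with no height to rank them by.

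Peaks nearest to a start were centred within the first bases of the gene or just before it. Centres lay 103 bases downstream of the start for RPS27 (peak at hg19 chr1:153963167-153963501), 114 for RPS4X (chrX:71496860-71497194), 146 for RPL11 (chr1:24018248-24018582) and 186 for RPL5 (chr1:93297570-93297888). That of RPL4 lay 173 bases upstream (chr15:66797199-66797533). Of the 18 peaks 5 also lay within the window of another gene's start, those of VPS52, ZWILCH, SPHK2, RDH10 and ARPC5L, so the gene to which a peak belongs is uncertain there.

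Members with and without a BCOR peak were both among those that were lower. With dex 13 of the 18 members with a peak were lower (median -0.23), against 42 of the 64 tested members without one (median -0.26). With vehicle 5 of the 18 were lower (median -0.16), against 32 of 64 (median -0.24). Without the 2 siNON libraries that stood apart, 10 of the 18 and 48 of the 64 were lower with vehicle. RPL5, with a peak at the start, was called in neither treatment, while RPS27 fell by 0.37 with dex and 0.34 with vehicle. The peaks were mapped in cells treated for 1 h and, as far as the labels say, not transfected, so peak and mRNA come from different samples.

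Upstream sequence of 4 members with a peak is shown for the motifs at these promoters (RefSeq, GRCh38.p14, 120 bases up to the base before the start). Capitals mark the letters CCGGAAG, recognised by ETS factors, or GGGCGG, recognised by SP1, on either strand.
RPS14 (chr5:150449740-150449859, - strand): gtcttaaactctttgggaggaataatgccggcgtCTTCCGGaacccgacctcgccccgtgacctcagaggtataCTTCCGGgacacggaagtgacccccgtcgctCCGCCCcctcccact
RPL29 (chr3:51995896-51996015, - strand): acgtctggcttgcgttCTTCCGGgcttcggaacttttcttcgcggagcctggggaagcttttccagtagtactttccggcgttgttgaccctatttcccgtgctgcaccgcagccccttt
RPL18 (chr19:48619179-48619298, - strand): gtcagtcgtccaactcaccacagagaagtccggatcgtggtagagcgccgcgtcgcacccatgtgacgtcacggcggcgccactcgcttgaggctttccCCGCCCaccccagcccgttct
RPS27 (chr1:153990642-153990761, + strand): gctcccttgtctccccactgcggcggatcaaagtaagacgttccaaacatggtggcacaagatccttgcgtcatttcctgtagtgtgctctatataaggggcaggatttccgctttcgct
RPS14 has the ETS letters at 2 places and the SP1 letters once, RPL29 the ETS letters once, RPL18 the SP1 letters once, and RPS27 neither. Over the 250 bases before the start, CCGGAAG was present in 34.3% of the 67 matched members, against 17.6% of the 11373 protein-coding genes, and GGGCGG in 58.2%, against 74.1%. TATAAA was present in 10.4%, against 8.46%, the NRF1 consensus in 11.9%, against 11.1%, and the E-box CACGTG, to which MYC binds, in 5.97%, against 11.1%. The full palindromic GRE, the site that GR binds, was found in 0 of the 67 members and 0 of the 11373 genes. The YY1 letters AAGATGGC were in 1.49%, against 2.21%, and the BCL6 letters TTCCTAGAA in 0%, against 0.29%. Both strands were searched, and a match is a string of letters, not a bound site.

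Members with and without an annotated TOP start were both lower after depletion. With dex 32 of 47 members with a TOP start were lower (median -0.29), against 12 of 19 tested members without one (median -0.22). With vehicle 25 of 47 were lower (median -0.25), against 4 of 19 (median -0.13), and without the 2 siNON libraries that stood apart 39 of 47 were lower with vehicle, against 8 of 19. Outside the members, of 769 other protein-coding genes with one, 25% were lower with dex and 9.88% with vehicle, against 20.1% and 8.19% of 10538 without one. Among those with at least 300 CPM the shares with dex were alike, 48.9% of 45 with a TOP start and 49.5% of 277 without one. With vehicle they were 20% and 14.8%. Promoter GC content had a median of 59.8% in members, against 64.4% in protein-coding genes tested. Among 66 members its Pearson correlation with the log2 fold change was -0.15 with dex and -0.09 with vehicle, against -0.17 and -0.11 across 11307 other genes, where genes share libraries.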

How the data were processed

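RNA-seq was deposited as 1 table of raw read counts per transcript for 16 libraries, which the authors made with HOMER (4.10.3) tag directories on hg19; FastQC, Trimmomatic, TopHat2, Bowtie (0.12.9) and bedtools are also named, per the submitters' processing notes. Whether counting used strand is not given in the sources used here. The series text names 3 replicates, the labels 4 per group, which were used. Peaks were deposited as 3 lists whose score column is 0 throughout, per the file headers and values; whether they were called on pooled samples is not given in the sources used here.

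Transcripts without a gene name (134 of 65572, 0.0664% of counts) were left out, and 1 transcript per symbol, that with the most reads, was kept. Counts were fitted with edgeR (4.0.16, R 4.3.3, limma 3.58.1): filterByExpr, TMM scaling, 4 group means over 16 libraries, quasi-likelihood test, Benjamini-Hochberg adjustment over 16432 genes, threshold 0.05. CPM and CPM per kb were computed from the counts, with library sizes scaled by TMM. The replicates are biological per the labels' protocols. The labels do not tie equal numbers across groups, and none were treated as pairs. The fit was also run on simulated data without outlying libraries. The changes set there were larger than the median change of the members, so it does not gauge changes of their size. Counting intervals were not computed, since the spread between replicates is larger. Alternatives were DESeq2 (1.42.0), other scalings, no filter, summed transcripts, 2-group fits, a replicate block and left-out libraries. Tables and plots used Python 3.11.15, pandas 2.3.3, numpy 2.4.6 and matplotlib 3.10.9.

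The members, the 9 gene lists and the splits by abundance, length, TOP start and peak were chosen with earlier results of these data known. Genes named are the called members (up to 12 a direction, by adjusted p) or the 3 smallest p-values, the 5 highest and 5 lowest per kb in each subunit, second copies with their parents, members with promoter peaks (up to 6 shared ones), up to 4 called genes per list and comparison, BCOR and MYC. Peaks are in hg19 coordinates and RefSeq sequences in GRCh38.p14, and neither was converted. A few genes that the rule would name are not reported here one by one; they remain in the counts and medians.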

Additional observations from a re-analysis of the deposited data

Results flagged for a closer look

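In 112 groups of 4 libraries checked, 5 held a library whose gap to the others was large for the group's range, where chance flags about 1 in 20 groups. The ratio of the large-subunit to the small-subunit share was 1.68 in siBCOR with vehicle replicate 2, below the 1.72 of the other 3 libraries of that group. RPSA stood at 829 CPM in the same library, the highest of that group. RPS24 stood at 679.7 CPM in siBCOR with vehicle replicate 4 and at 985 CPM in siNON with vehicle replicate 4, each the highest of its group. RPL7L1 stood at 202 CPM in siNON with dex replicate 1, the highest of its group.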

How the results depend on the processing

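Between siBCOR and siNON cells, 56 members were called with dex and 38 with vehicle, and leaving out 1 library at a time gave 44 to 67 and 22 to 55. Without both siNON libraries that stood apart, 59 were called with vehicle. Between dex and vehicle, 4 members were called in siBCOR cells (1 to 5 with 1 library left out, 2 when only the 2 compared groups were fitted) and 0 in siNON cells (0 to 1). The interaction gave 0 calls, 0 to 4 with 1 library left out, 2 without both siNON libraries that stood apart (10.8% of all genes) and 1 under DESeq2; the cause of these shifts was not tested. Upper-quartile and RLE scaling, TMM without the members and lists, no filter, summed transcripts, DESeq2 and fits of the compared groups gave 28 to 53 calls with vehicle and 55 to 69 with dex, against 38 and 56. Over all genes, samples with equal replicate numbers did not vary together (median correlation -0.01 over 24 pairs, 6 of them over 0.1, and 5 of 16 libraries closest to their own number). The members did so in part. Their mean log2 deviation from the group mean was above 0 in replicate 4 of each group. It was 0.094 and 0.032 in siBCOR with dex and with vehicle, and 0.094 and 0.104 in siNON. In replicates 1 and 3 of each group it was below 0, while the sign of replicate 2 differed between siBCOR and siNON. The main fit ignored this. With the replicate block 67 members were called with dex and 48 with vehicle between siBCOR and siNON cells. That block gave 3 and 0 between dex and vehicle in siBCOR and siNON cells, and 0 for the interaction. The change in the share of counts after depletion ranged from -1.44 to -1.15 percentage points with dex and from -1.27 to -0.878 with vehicle over left-out libraries; between dex and vehicle it ranged from -0.316 to 0.0458 in siBCOR cells and from -0.0805 to 0.266 in siNON cells, so its sign is not fixed there. None of the 98 member calls changed sign under the 25 alternatives. With 4 libraries a group, differences under about the spread between replicates could not be detected.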

Other observations

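Of the 82 tested members 12 lie on chromosome 19 (hg19), a split chosen after their values were seen. With dex 11 of these 12 were lower in siBCOR than in siNON cells (median log2 fold change -0.48), against 44 of 70 on other chromosomes (median -0.23). With vehicle 8 of 12 were lower (median -0.31), against 29 of 70 (median -0.19), and without the 2 siNON libraries that stood apart 11 of 12, against 47 of 70. The chromosome 19 members include RPL18, RPS28, RPS19 and RPL28. This is a description of these genes with no test, since they were picked out by their values.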
